A study of Mus musculus with 4 samples.

Results

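The cell cycle and DNA replication genes described here are 39 named genes, of which 16 act in S phase, when DNA is copied, and 23 act in mitosis. A member was taken as measured where a probe set of the array named that gene alone, and the probe set of highest mean represented a gene with several. On this rule 38 of the 39 members were measured, among 19937 genes in all. All 16 S phase members and 22 of the 23 mitosis members were found, and cyclin B1 (Ccnb1) had no probe set that named it alone, so that no value is given for it. Transcripts of resting, unstimulated splenic CD4 T cells were measured on 4 Affymetrix arrays (Mouse Gene 1.0 ST), 2 from wild-type (WT) mice and 2 from Ifitm-/- mice, to ask how loss of the interferon-inducible transmembrane protein genes alters these cells. All animals were 6 to 8 weeks old, red cells of both genotypes were lysed with ammonium chloride, and other cell types were removed by negative selection. Per the study, the whole Ifitm family is deleted, on a C57BL/6 background, each array held cells pooled from 2 mice, and the 2 replicates of a genotype were separate purifications. The deletion is carried by the whole animal, so every cell type left in a preparation lacked the same genes.

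A resting T cell sits outside the cell cycle. On entry, D-type cyclins and then cyclin E drive phosphorylation of the retinoblastoma (pocket) proteins, E2F factors are released, and genes for origin licensing, the replicative helicase and nucleotide supply are transcribed. Genes for mitosis are switched on later, largely through a promoter element called CHR together with CCAAT boxes, and in resting cells a complex named DREAM, which holds a pocket protein, E2F4 and MuvB proteins, keeps both groups off. Levels of these transcripts are widely used to judge how many cells of a population are dividing.

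Promoters of 4 members are shown because they hold the E2F, CHR and CCAAT letters counted next. Each is the stretch of 200 bases before the annotated start of the gene in RefSeq, assembly GRCm38.p6, printed 5′ to 3′ on the strand of the gene, with matches in capitals. Mcm6 encodes a subunit of the replicative helicase (chr1:128359706-128359905, minus strand), and its capitals mark E2F and CCAAT matches, of which one pair of E2F matches overlaps. Cdk1 encodes the kinase that drives mitosis (chr10:69352913-69353112, minus strand), and its capitals mark an E2F match, CHR matches and CCAAT matches. Ccnb2 encodes a partner cyclin of CDK1 (chr9:70421555-70421754, minus strand), and Cdc20 an activator of the ubiquitin ligase that ends mitosis (chr4:118437344-118437543, minus strand). In both of these the capitals mark CHR and CCAAT matches. Ccnb2 also holds a CHR match at bases 4 to 9 from the start, and Cdk1 a CCAAT match at bases -208 to -204. These matches lie outside the printed stretches and are not marked.
Mcm6: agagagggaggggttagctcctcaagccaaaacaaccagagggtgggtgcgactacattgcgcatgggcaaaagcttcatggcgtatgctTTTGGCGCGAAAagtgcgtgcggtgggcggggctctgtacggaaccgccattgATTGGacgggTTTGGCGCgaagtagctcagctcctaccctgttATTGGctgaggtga
Cdk1: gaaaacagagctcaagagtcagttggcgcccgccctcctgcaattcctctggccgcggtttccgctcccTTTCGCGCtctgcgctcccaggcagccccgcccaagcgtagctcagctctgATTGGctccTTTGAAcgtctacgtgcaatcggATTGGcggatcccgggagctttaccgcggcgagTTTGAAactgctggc
Ccnb2: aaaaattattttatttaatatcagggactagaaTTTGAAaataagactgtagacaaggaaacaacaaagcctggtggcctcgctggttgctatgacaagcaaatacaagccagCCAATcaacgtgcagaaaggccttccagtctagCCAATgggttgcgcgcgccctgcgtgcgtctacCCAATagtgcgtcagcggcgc
Cdc20: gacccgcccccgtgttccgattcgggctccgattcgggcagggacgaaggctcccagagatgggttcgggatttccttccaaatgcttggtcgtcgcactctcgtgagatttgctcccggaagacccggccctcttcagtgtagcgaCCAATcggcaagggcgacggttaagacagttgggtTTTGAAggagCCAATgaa

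The letters searched were TTTGGCGC, TTTCGCGC and TTTCCCGC for E2F, TTTGAA and TTCGAA for CHR, and CCAAT, each on both strands of the 300 bases from 250 before to 50 after the start. A promoter was found for 33 of the 39 members, 14 of S phase and 19 of mitosis, Ccnb1 included. An E2F match stood in 5 of 14 S phase promoters (35.7%), 4 of them among the 5 promoters of MCM helicase genes, against 1 of 19 mitosis promoters (5.26%), that of Cdk1, and 515 of all 27025 promoters (1.91%). A CHR match stood in 15 of 19 mitosis promoters (78.9%), 3 of 14 S phase promoters (21.4%) and 19.4% of all promoters. CCAAT stood in 17 of 19 mitosis promoters (89.5%), 9 of 14 S phase promoters (64.3%) and 37.9% of all, and CHR and CCAAT together in 15 of 19 mitosis promoters and 7.7% of all. The promoters of 6 of the 33 members, Birc5, Nusap1, Ccne1, E2f1, Tk1 and Tyms, held none of these letters. A match describes letters in this window and is not evidence of a bound site.

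The arrays were alike over all genes, but 1 of them stood apart in the genes described here. Across probe sets the log2 values of a genotype's arrays correlated at 0.991 to 0.993, and those of different genotypes at 0.976 to 0.979. WT replicate 1 was the lowest of the 4 arrays for 31 of the 38 members, whereas it was the lowest for 4305 of 19937 genes (21.6%). Members named in full are therefore given array by array, and differences without that array are given beside the groups they belong to. The deleted genes followed the labels, with log2 intensities of Ifitm3 of 9.26 and 8.91 in WT and 4.61 and 4.36 in Ifitm-/- cells. Xist, the RNA of the inactive X chromosome, was at 11.32 and 11.25 in WT and 4.86 and 4.43 in Ifitm-/- cells. Transcripts of the Y chromosome (Eif2s3y, Uty, Kdm5d) were high on the Ifitm-/- arrays alone, so sex and genotype cannot be told apart in any comparison below.

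No member passed the test between genotypes. With limma's moderated test over all 34760 probe sets and Benjamini-Hochberg adjustment, 0 of 16 S phase members and 0 of 22 mitosis members had an adjusted p under 0.05, where 4.96% of all 19937 genes were called higher and 3.61% lower in Ifitm-/- cells. The lowest adjusted p was 0.135 among S phase members, for Ccne1, and 0.114 among mitosis members, for Nusap1. At an unadjusted p under 0.05, Ccne1 and Nusap1 were higher and Mcm4 and Pcna lower, that is 2 of 38 in each direction, where 14.3% of all genes were higher and 11.5% lower by that measure. The methods' t-test after the same adjustment called 0 of 38 members and 4 of all 34760 probe sets. Both Ifitm-/- arrays lay above both WT arrays for 3 S phase and 11 mitosis members (27.9% of all genes) and below them for 4 S phase and 0 mitosis members (30.8% of all genes). All levels below are log2 RMA intensities and all differences are Ifitm-/- minus WT on that scale, with the 2 arrays of a genotype in replicate order and 95% intervals from limma (n = 2 per genotype). The number of arrays limits the precision, and in bulk RNA fewer dividing cells and less RNA per cell cannot be told apart.

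The S phase members had no common direction. Their median difference was -0.05, where that of all genes was -0.02, with 7 above and 9 below 0 and Tk1 at -0.01 the one whose sign another centring turned (0.03 with median centring). The mean level of the 16 members was 7.99 and 8.62 in WT, on average 8.31 ± 0.44 (SD, n = 2), and 8.55 and 8.40 in Ifitm-/- cells, on average 8.48 ± 0.11. WT replicate 1 was the lowest array for 9 of the members and Ifitm-/- replicate 2 for the other 7. Over all 19937 genes these arrays were the lowest for 4305 and 6493. Against WT replicate 2 alone the median difference was -0.28, with 5 members above 0 and 11 below, and against WT replicate 1 alone it was 0.29, with 10 above 0. The sign of the median therefore rested on which WT array was taken, and it also turned without Ifitm-/- replicate 2 (0.046) and with the mean of all probe sets of a gene (0.06). Without Ifitm-/- replicate 1 the median was -0.142. Fits without 1 WT array hold no spread between WT arrays, so their p values do not measure the gap between those arrays.

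**Figure D1:**
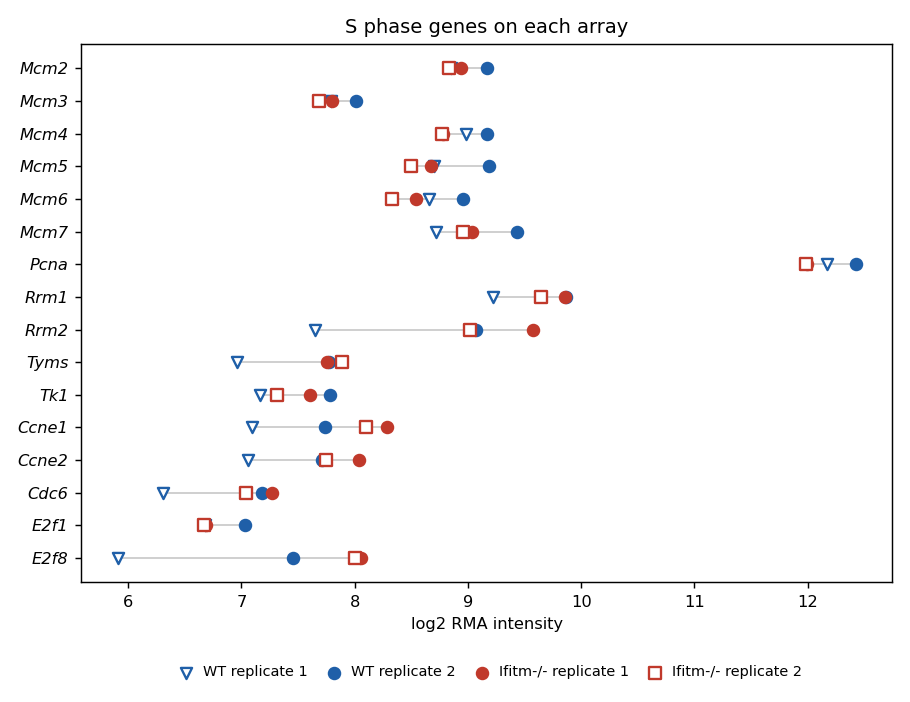
Log2 RMA intensity (x axis) of the 16 S phase members (rows) on each array, with open symbols for WT replicate 1 (triangle) and Ifitm-/- replicate 2 (square), filled circles for the other 2 arrays, and a grey line over the range of a gene. WT replicate 2 is the rightmost symbol for all 6 MCM genes and for Pcna, while WT replicate 1 is the leftmost for E2f8, Rrm2 and Ccne1.

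The helicase genes Mcm2 to Mcm7 encode the 6 subunits of the ring that unwinds DNA at the fork. All 6 differences were below 0, from -0.37 to -0.08 with a median of -0.23, and none was called. Mcm6 was at 8.65 and 8.96 in WT and at 8.54 and 8.33 on the Ifitm-/- arrays, a difference of -0.37 (95% interval -0.76 to 0.02, adjusted p = 0.205). Mcm4 was at 8.99 and 9.17 in WT and at 8.78 and 8.77 in Ifitm-/- cells, a difference of -0.30 (interval -0.57 to -0.04, adjusted p = 0.148). Mcm5 was at 8.70 and 9.18 in WT and at 8.67 and 8.49 in Ifitm-/- cells, a difference of -0.36 (interval -0.87 to 0.16, adjusted p = 0.324). For these 3 of the 6 subunits both Ifitm-/- arrays lay below both WT arrays, as they did for 30.8% of all genes. Mcm3 was at 7.79 and 8.02 in WT and at 7.80 and 7.68 in Ifitm-/- cells, with a difference of -0.16 (adjusted p = 0.444). Mcm2 was at 8.85 and 9.17 in WT and at 8.94 and 8.83 in Ifitm-/- cells, with a difference of -0.12 (interval -0.49 to 0.24, adjusted p = 0.624). Mcm7 was at 8.72 and 9.44 in WT and at 9.03 and 8.95 in Ifitm-/- cells, with a difference of -0.08 (adjusted p = 0.871). The genotypes overlapped for Mcm3, Mcm2 and Mcm7. WT replicate 2 was the highest array for all 6 subunits and Ifitm-/- replicate 2 the lowest for 5, all but Mcm7. Over all 19937 genes WT replicate 2 was the highest for 5732 and Ifitm-/- replicate 2 the lowest for 6493. Without WT replicate 1 the 6 differences lay between -0.60 for Mcm5 and -0.27 for Mcm3. Without WT replicate 2 they lay between -0.22 for Mcm6 and 0.28 for Mcm7, and those of Mcm2 and Mcm7 turned to 0.04 and 0.28.

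Pcna, the sliding clamp that holds DNA polymerases on the template, was at 12.17 and 12.42 in WT and at 11.99 on both Ifitm-/- arrays. Its difference was -0.31 (interval -0.61 to -0.0039, adjusted p = 0.185), the genotypes did not overlap, and its second probe set gave -0.21. The difference of Pcna was -0.43 without WT replicate 1 and -0.18 without WT replicate 2.

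Of the 4 genes of nucleotide supply, WT replicate 1 was the lowest array for each and none was called. Rrm2, the regulatory subunit of ribonucleotide reductase, which makes deoxynucleotides, was at 7.65 and 9.07 in WT and at 9.58 and 9.02 in Ifitm-/- cells (difference 0.94, interval -0.45 to 2.34, adjusted p = 0.336). The WT arrays of Rrm2 thus differed by 1.42, more than the genotypes did. Its partner Rrm1, the large subunit, was at 9.22 and 9.87 in WT and at 9.85 and 9.64 in Ifitm-/- cells (difference 0.20, adjusted p = 0.648). Thymidylate synthase, Tyms, was at 6.96 and 7.77 in WT and at 7.75 and 7.89 in Ifitm-/- cells (difference 0.46, adjusted p = 0.39). The genotypes overlapped for all 4, and without WT replicate 1 the differences were 0.23 for Rrm2, -0.12 for Rrm1 and 0.05 for Tyms. Thymidine kinase, Tk1, was at 7.16 and 7.78 in WT and at 7.61 and 7.31 in Ifitm-/- cells, a difference of -0.01 (adjusted p = 0.983), and its second probe set gave 0.45, so that the direction of Tk1 was not settled.

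Of the 5 regulators of entry into S phase, 4 had differences above 0, and 1 of these passed the unadjusted threshold. Cyclin E1, Ccne1, which drives the passage from G1 to S, was at 7.09 and 7.74 in WT and at 8.28 and 8.10 on the Ifitm-/- arrays (difference 0.78, interval 0.14 to 1.42, unadjusted p = 0.027 and adjusted p = 0.135 by limma). Its relative Ccne2 was at 7.06 and 7.71 in WT and at 8.04 and 7.75 in Ifitm-/- cells (difference 0.51, interval -0.17 to 1.19, adjusted p = 0.293). E2f8, an E2F that represses E2F targets late in the cycle, was at 5.91 and 7.45 in WT and at 8.06 and 8.00 in Ifitm-/- cells (difference 1.34, interval -0.07 to 2.76, adjusted p = 0.205). For these 3 genes both Ifitm-/- arrays lay above both WT arrays, as they did for 27.9% of all genes. Without WT replicate 1 the differences of the 3 were 0.46, 0.18 and 0.57. The origin licensing factor Cdc6 was at 6.30 and 7.19 in WT and at 7.27 and 7.04 in Ifitm-/- cells (difference 0.41, adjusted p = 0.478), and without WT replicate 1 its difference was -0.03. E2f1, an activator of S phase genes, was at 6.68 and 7.03 in WT and at 6.69 and 6.67 in Ifitm-/- cells (difference -0.18, adjusted p = 0.496). Both of these overlapped between genotypes.

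The mitosis members moved together from array to array, and as a list their difference lay mainly between the WT arrays. Single members that kept a difference without WT replicate 1 are given below. WT replicate 1 was the lowest of the 4 arrays for all 22. WT replicate 2 exceeded it by a median of 0.80, from 0.50 to 1.90 over the members, while the same difference had a median of 0.63 over S phase members and 0.01 over all genes. The Ifitm-/- replicates differed by a median of -0.07, replicate 2 minus replicate 1. The mean level of the 22 members was 6.94 and 7.84 in WT, on average 7.39 ± 0.63 (SD, n = 2), and 7.92 and 7.84 in Ifitm-/- cells, on average 7.88 ± 0.06. The median difference between genotypes was 0.37, with 21 members above 0 and Bub1b at -0.01, a sign that median centring turned to 0.03. Against WT replicate 2 alone the median was 0.01, with 11 members above and 11 below 0, and against WT replicate 1 alone it was 0.81, with all 22 above. The median was 0.335 without Ifitm-/- replicate 1 and 0.406 without Ifitm-/- replicate 2. A fit without 1 WT array holds no spread between WT arrays, so its p values do not measure the gap between them.

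**Figure D2:**
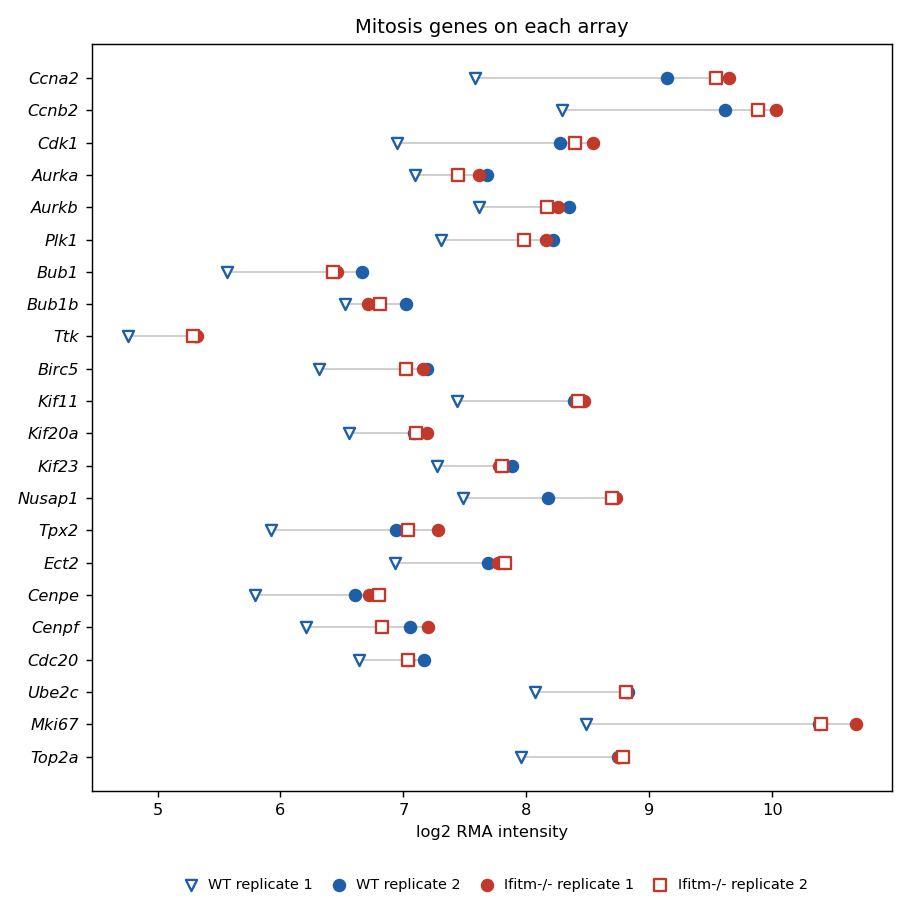
Log2 RMA intensity (x axis) of the 22 measured mitosis members (rows) on each array, with open symbols for WT replicate 1 (triangle) and Ifitm-/- replicate 2 (square), filled circles for the other 2 arrays, and a grey line over the range of a gene. WT replicate 1 is the leftmost symbol in every row, and WT replicate 2 lies among or close to the Ifitm-/- arrays, apart from the gaps of Nusap1, Ccna2 and Ccnb2.

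The mitotic cyclins and their kinase had a median difference of 1.01, the highest among the roles of the mitosis members. Ccna2, cyclin A2, which acts in S phase and early mitosis, was at 7.58 and 9.14 in WT and at 9.65 and 9.54 on the Ifitm-/- arrays (difference 1.24, interval -0.20 to 2.67, adjusted p = 0.239). Ccnb2, whose promoter is shown above, was at 8.29 and 9.61 in WT and at 10.03 and 9.89 in Ifitm-/- cells (difference 1.01, interval -0.22 to 2.23, adjusted p = 0.257). Cdk1 was at 6.95 and 8.28 in WT and at 8.54 and 8.40 in Ifitm-/- cells (difference 0.86, interval -0.37 to 2.08, adjusted p = 0.323). For these 3 both Ifitm-/- arrays lay above both WT arrays, as they did for 27.9% of all genes. The WT arrays of the 3 differed by 1.32 to 1.56, more than the genotypes. Without WT replicate 1 the differences were 0.46 for Ccna2, 0.35 for Ccnb2 and 0.19 for Cdk1.

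Mki67, which encodes the proliferation marker Ki-67, was at 8.49 and 10.38 in WT and at 10.68 and 10.40 in Ifitm-/- cells (difference 1.10, interval -0.64 to 2.85, adjusted p = 0.362). The WT arrays of Mki67 differed by 1.90, the most of any mitosis member, and WT replicate 2 lay just under Ifitm-/- replicate 2. Top2a, the topoisomerase that untangles sister chromosomes, was at 7.95 and 8.75 in WT and at 8.76 and 8.79 in Ifitm-/- cells (difference 0.42, interval -0.32 to 1.17, adjusted p = 0.411). For Top2a 3 arrays thus lay close together and WT replicate 1 below them. Without that array the differences were 0.16 for Mki67 and 0.03 for Top2a.

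Among spindle and cytokinesis genes, Nusap1, which bundles spindle microtubules, was the mitosis member of smallest p. It was at 7.49 and 8.18 in WT and at 8.73 and 8.70 on the Ifitm-/- arrays (difference 0.88, interval 0.22 to 1.54, unadjusted p = 0.0198 and adjusted p = 0.114 by limma). Its difference was 0.53 without WT replicate 1. Tpx2, an activator of Aurora A at the spindle, was at 5.93 and 6.94 in WT and at 7.28 and 7.04 in Ifitm-/- cells (difference 0.73, interval -0.24 to 1.69, adjusted p = 0.29). For both genes the 2 Ifitm-/- arrays lay above the 2 WT arrays, as they did for 27.9% of all genes. The same held for the spindle motor gene Kif11, the cytokinesis motor gene Kif20a and Ect2, which triggers the contractile ring. Their differences were 0.53, 0.33 and 0.49, with adjusted p values of 0.332 to 0.381 by limma. Kif11 was at 7.43 and 8.38 in WT and at 8.47 and 8.42 in Ifitm-/- cells, so that WT replicate 2 lay beside the Ifitm-/- arrays. Without WT replicate 1 the differences shrank to 0.22 for Tpx2, 0.06 for Kif11, 0.06 for Kif20a and 0.11 for Ect2. Kif23, another cytokinesis motor gene, overlapped (difference 0.21, adjusted p = 0.603). Of the kinetochore genes, Cenpe was at 5.79 and 6.61 in WT and at 6.72 and 6.80 in Ifitm-/- cells (difference 0.56, interval -0.21 to 1.33, adjusted p = 0.302). Cenpf overlapped (difference 0.38, adjusted p = 0.516). Without WT replicate 1 the differences were 0.15 for Cenpe and -0.04 for Cenpf.

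The mitotic kinases, the spindle checkpoint genes and the genes of the anaphase-promoting complex had Ifitm-/- means below WT replicate 2. These were the kinases Aurka, Aurkb and Plk1, the checkpoint genes Bub1, Bub1b and Ttk, the Aurora B partner Birc5, and Cdc20 and Ube2c, which act on the anaphase-promoting complex. The genotypes overlapped for all 9, with differences from -0.01 for Bub1b to 0.36 for Ube2c and adjusted p values of 0.461 to 0.984. Cdc20, whose promoter is shown above, was at 6.64 and 7.17 in WT and at 7.03 and 7.04 on the Ifitm-/- arrays. Plk1 was at 7.30 and 8.22 in WT and at 8.16 and 7.98 in Ifitm-/- cells. In each of the 9 the mean of the Ifitm-/- arrays minus WT replicate 2 was below 0, from -0.26 for Bub1b to -0.0034 for Ttk. Ttk, at 4.76 to 5.32, lay on every array within the range that holds 95% of 1035 olfactory receptor probe sets, which end at 5.50 to 5.65 and stand for genes that T cells do not use, so its values may be background.

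Markers of other cell types differed between the same arrays. Of 12 erythroid genes listed 10 were measured, and WT replicate 1 was the lowest array for 9 of them. Their mean level was 7.05 and 8.29 in WT and 8.94 and 8.79 in Ifitm-/- cells, with a median difference of 1.14. Against WT replicate 2 alone the median of the 10 was 0.55, with all 10 above 0, where that of the mitosis members was 0.01. Both Ifitm-/- arrays lay above both WT arrays for 8 of the 10 (27.9% of all genes). By limma 0 of the 10 were called and 4 were higher at an unadjusted p under 0.05, where 14.3% of all genes were. Slc4a1, the red cell anion exchanger gene, was at 9.24 and 11.19 in WT and at 12.01 and 11.78 in Ifitm-/- cells (adjusted p = 0.209). The erythroid gene Ermap was at 7.15 and 9.17 in WT and at 9.54 and 9.25 in Ifitm-/- cells (adjusted p = 0.34). Alas2, the enzyme that opens haem synthesis in red cells, was the exception, at 10.85 and 9.98 in WT and at 10.36 and 10.47 in Ifitm-/- cells (adjusted p = 0.996). Rhag was the one erythroid marker within the olfactory receptor range, on WT replicate 1 alone. B cell markers ran the other way, with WT replicate 1 the highest array for all 9 measured, a mean level of 9.31 and 7.85 in WT and 7.66 and 8.30 in Ifitm-/- cells, 0 called by limma and 0 at an unadjusted p under 0.05. Cd74, Cd79b and Cd79a, the 3 of highest mean, were at 12.04, 10.67 and 10.02 on WT replicate 1 and at 10.65, 9.24 and 8.27 on WT replicate 2. The 8 measured CD4 T cell markers had mean levels of 11.42 and 11.45 in WT and 11.66 and 11.61 in Ifitm-/- cells. Cd3d, Cd3g and Il7r were called higher and Cd28 lower, where 4.96% of all genes were called higher and 3.61% lower. The 4 germinal centre markers lay at a mean of 5.53 to 5.68 on every array, with Mybl1 and Rgs13 within the olfactory receptor range throughout. The part of these cell types in the levels of the cell cycle genes was not tested.

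**Figure D3:**
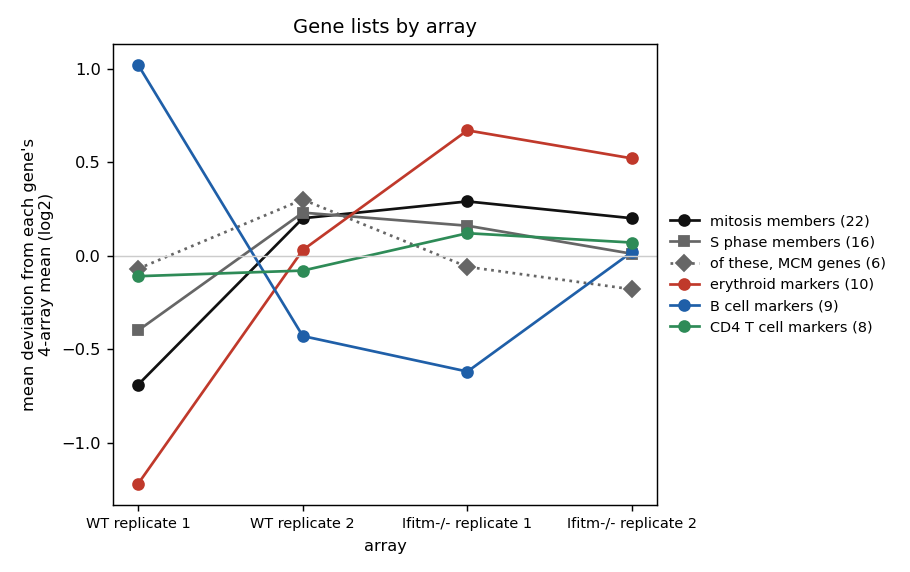
Mean deviation of each gene from its own 4-array mean (y axis, log2) on each array (x axis) for the mitosis members, the S phase members, the 6 MCM genes among these, and erythroid, B cell and CD4 T cell markers, with the number of genes in brackets and lines that only link the points of a list. On WT replicate 1 the mitosis members lie at -0.69 and the erythroid markers at -1.22, while the B cell markers lie at 1.02.

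Plasma cell markers were also highest on WT replicate 1, with mean levels of 8.21 and 7.83 in WT and 7.21 and 7.25 in Ifitm-/- cells. All 5 had both Ifitm-/- arrays below both WT arrays (30.8% of all genes). All 5 were lower at an unadjusted p under 0.05 by limma (11.5% of all genes). Their median difference was -0.73 (-0.50 against WT replicate 2 alone), and 1, Derl3, was called lower (3.61% of all genes). Of the CD8 T cell, NK cell and platelet markers 0 of 2, 0 of 4 and 0 of 4 measured genes were called by limma. In that order 1 was lower, 3 were higher and 1 was higher at an unadjusted p under 0.05. Of all genes 14.3% were higher and 11.5% lower by that measure. WT replicate 1 was the lowest array for none of these 10 genes. Of 13 myeloid and neutrophil markers 1, Retnlg, was called higher (4.96% of all genes).

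Genes of the same pathway outside the 39 were then examined. Of 42 further replication genes, of origins and forks, 41 were measured, and 4 of these were called, 3 higher and 1 lower, where 4.96% of all genes were called higher and 3.61% lower. This count is near that background. Orc5, a subunit of the origin recognition complex that marks where copying starts, was at 7.75 and 7.70 in WT and at 8.87 and 8.86 on the Ifitm-/- arrays and rose by 1.14 (interval 0.93 to 1.35, adjusted p = 0.0141). Its partner Orc3 was at 9.17 and 9.22 in WT and at 9.74 and 9.84 in Ifitm-/- cells and rose by 0.60 (adjusted p = 0.0328). Dbf4, the activating subunit of the CDC7 kinase that fires origins, was at 9.78 and 9.89 in WT and at 8.23 and 8.35 in Ifitm-/- cells and fell by 1.54 (interval -1.80 to -1.29, adjusted p = 0.0131). Rpa3, a subunit of the complex that coats single-stranded DNA, rose by 0.73 (adjusted p = 0.049) and was not called after a second quantile normalization (adjusted p = 0.0599). In these 4 genes the WT replicates differed by at most 0.11. Rpa3 was at 7.41 and 7.42 in WT and at 8.31 and 7.99 on the Ifitm-/- arrays, which thus lay further apart than its WT arrays. The values of Rpa3 are of the probe set of highest mean among 2. The median of the 41 was 0.04.

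Of 51 further mitosis genes, 3 were called, 1 higher and 2 lower, which is likewise near the share over all genes. Bub3, a spindle checkpoint gene, was at 8.54 and 8.60 in WT and at 9.15 and 9.14 in Ifitm-/- cells and rose by 0.58 (adjusted p = 0.0303). Cks2, a small partner of cyclin-dependent kinases, was at 9.87 and 10.30 in WT and at 9.11 and 9.10 in Ifitm-/- cells and fell by 0.98 (adjusted p = 0.0432). Cks2 had 3 probe sets, and these values are of the one of highest mean alone. Cenpa, the histone variant of centromeres, fell by 0.58 (adjusted p = 0.0486) and was not called after median centring (adjusted p = 0.0548). The list as a whole shared the pattern of the mitosis members, with WT replicate 1 the lowest array for 41 of 51, a median difference of 0.28, and 26 above and 25 below 0 against WT replicate 2 alone. None of the 11 genes of G1 entry was called by limma. At an unadjusted p under 0.05, 6 were higher and 0 lower, where 14.3% of all genes were higher and 11.5% lower. The 6 were Ccnd2, Ccnd3, Cdk4, E2f2, Cdc25a and Tfdp2. Under 3 of the alternatives 1 gene of this list was called. The arrays of the genotypes were apart for all 11, 9 higher and 2 lower, where 27.9% of all genes were apart higher and 30.8% lower.

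**Figure D4:**
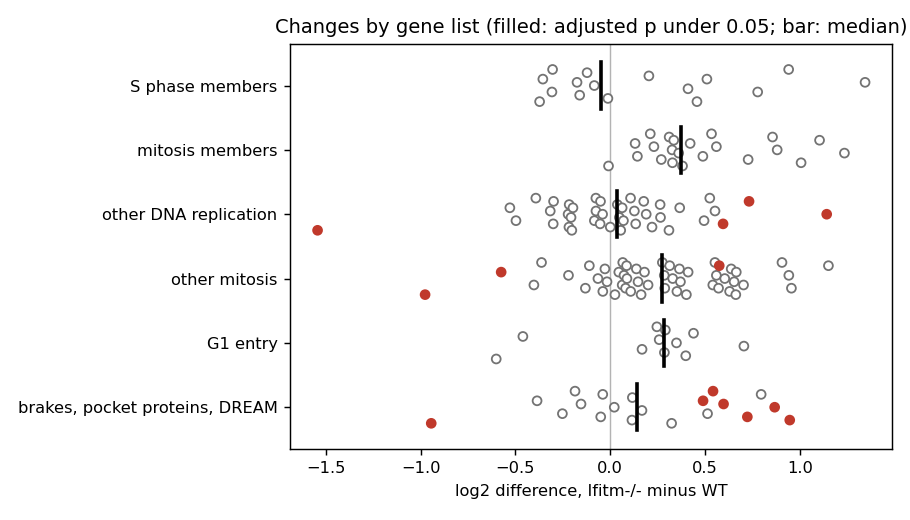
Difference of each gene (x axis, log2, Ifitm-/- minus WT) by list (rows), with a circle per gene, filled where the adjusted p is under 0.05, and a black bar at the median of a list. The 38 members hold no filled circle, and the brakes, pocket protein and DREAM list holds 7, of which 6 are above 0.

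The list of brakes, pocket proteins and DREAM genes held 7 of the 14 calls among these further lists. Of 21 brakes, pocket proteins and DREAM genes 20 were measured, all but Cdkn1a, and 7 were called, 6 higher and 1 lower, where 4.96% and 3.61% of all genes were. This list was chosen with earlier results of these data known, so its share of calls is a description and no test of the list. Rbl1, the pocket protein p107, was at 8.36 and 8.38 in WT and at 9.40 and 9.24 on the Ifitm-/- arrays and rose by 0.95 (interval 0.70 to 1.19, adjusted p = 0.0184). Rbl2, the pocket protein p130 that serves DREAM in resting cells, was at 8.99 and 8.98 in WT and at 9.92 and 9.78 in Ifitm-/- cells and rose by 0.87 (interval 0.63 to 1.11, adjusted p = 0.0199). Ccng1, a p53-responsive cyclin, was at 11.07 and 10.93 in WT and at 11.70 and 11.75 in Ifitm-/- cells and rose by 0.72 (adjusted p = 0.0265). Ccng2, a cyclin linked to cell cycle arrest, was at 9.26 and 9.29 in WT and at 8.36 and 8.29 in Ifitm-/- cells and fell by 0.94 (interval -1.16 to -0.73, adjusted p = 0.0156). The other 3 called genes, named after their values were seen, were Rb1, the founding pocket protein (difference 0.54, adjusted p = 0.0445), the repressor E2f6 (0.60, adjusted p = 0.0365) and Cdkn2d, which inhibits CDK4 and CDK6 (0.49, adjusted p = 0.0429). All 3 pocket proteins were thus higher. Cdkn2c (difference 0.80, adjusted p = 0.0544 by limma) and Cdkn1b, the inhibitor p27 (-0.39, adjusted p = 0.0707), were not called. Neither were the DREAM factor E2f4 (0.32, adjusted p = 0.168) and the MuvB genes Lin9, Lin52, Lin54, Lin37 and Rbbp4 (-0.19 to 0.51). The rest of the list, Cdkn1c, Cdkn2a, Cdkn2b, E2f5 and E2f7 (-0.25 to 0.17), was not called either. The WT replicates differed by at most 0.15 for the 7 called genes. As for every call in these data, leaving out any 1 array took the adjusted p of each above the threshold, at differences of 0.44 to 1.02 for the 6 higher genes and -0.98 to -0.91 for Ccng2.

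**Figure D5:**
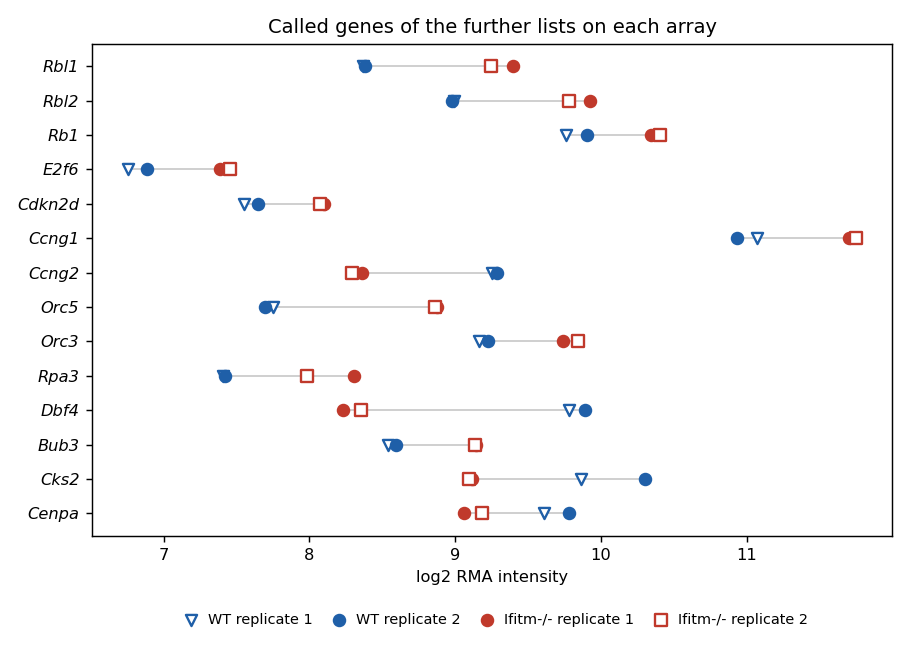
Log2 RMA intensity (x axis) on each array of the 14 called genes of the further pathway lists (rows), with triangles and filled blue circles for WT and red symbols for Ifitm-/-, and a grey line over the range of a gene. The arrays of a genotype lie close together in most rows, and WT replicate 1 does not stand apart as it does among the mitosis members.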

How the data were processed

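Total RNA of 4 preparations was measured on Affymetrix Mouse Gene 1.0 ST arrays. The values the authors deposited were linear (not log) intensities from RMA, which corrects background, quantile-normalizes the arrays and summarises probe sets. Per the labels the tools were RMA and affy, and their versions are not given in the sources used here. Because of quantile normalization, a difference is measured against the rest of the array. Values were turned to log2 and all 34760 probe sets were fitted with limma 3.58.1 (lmFit, eBayes, 2 residual and 2.39 prior degrees of freedom) in R 4.3.3, with Benjamini-Hochberg adjustment and calls at an adjusted p under 0.05. Of the probe sets, 21640 had 1 annotated gene, 1321 several and 11799 none, and 21553 of the first kind were in a RefSeq table of GRCm38.p6. Promoters are from the same assembly.

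All members were accounted for. Full statistics were given for the 6 of smallest p in each group and for Mki67, Top2a, Cdk1, Mcm2, Pcna and Rrm2, and for up to 4 called genes of each further list. Members and lists were chosen with earlier results of these data known. The alternatives tried were another eBayes prior (trend, robust), a second quantile normalization or median centring, dim probe sets left out, the mean of a gene's probe sets, a replicate block, the t-test of the methods, and each array left out. In simulated data with 3000 changed probe sets among 34760, limma recovered 29.5% of changes of 0.5, 82.9% of 1 and 97.6% of 2 log2 units. The simulated noise was independent from gene to gene, without the gap between the WT arrays that the members share. These percentages therefore do not give the power for the members. Replicates were separate purifications, and p values measure the spread between them.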

Additional observations from a re-analysis of the deposited data

How the results depend on the processing

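The count of called members stayed at 0 in every alternative. Called genes of the further lists numbered 3 higher and 1 lower for replication, 1 higher and 2 lower for mitosis, 0 for G1 entry and 6 higher and 1 lower for the brakes. A second quantile normalization gave 2 higher for replication and 5 higher for the brakes. With trend and robust eBayes, mitosis had 2 higher, G1 entry 1 higher and the brakes 7 higher and 2 lower. Without dim probe sets there were 4 higher and 2 lower for replication, 2 higher for mitosis, 1 higher for G1 entry and 7 higher and 2 lower for the brakes. With the mean of a gene's probe sets there were 5 higher and 2 lower for replication, 2 higher and 3 lower for mitosis, 1 higher for G1 entry and 7 higher and 2 lower for the brakes. Median centring gave 2 higher and 1 lower for mitosis and 7 higher for the brakes. Counts not listed were as reported. The methods' t-test gave 0 in every list after adjustment. Leaving out any array left 0 calls in each list and 0 over all probe sets in limma, with 6062 to 9107 of 34760 at an unadjusted p under 0.05.

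The replicate numbers did not pair the arrays (correlation of deviations -0.124), and the replicate block left 0 calls in each list and 0 of 34760 probe sets, against 2930 without it. The crossed replicate block, added after the data were seen, gave 975 probe sets, with 1 higher and 1 lower for replication, 0 higher and 0 lower for mitosis and 1 higher and 1 lower for the brakes.

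The median of the S phase members was 0.286 without WT replicate 2 and lay between -0.276 and 0.286 over the arrays left out. The sign of 12 members turned without WT replicate 1, of 4 without WT replicate 2 and of 1 without either Ifitm-/- array. Ranges over the arrays left out were -0.03 to 0.851 for Cdc6, -0.12 to 0.528 for Rrm1, -0.28 to 0.036 for Mcm2, -0.444 to 0.276 for Mcm7, -0.321 to 0.297 for Tk1, -0.221 to 0.878 for Bub1, -0.257 to 0.239 for Bub1b, -0.149 to 0.436 for Aurka, -0.133 to 0.594 for Aurkb, -0.145 to 0.767 for Plk1, -0.097 to 0.52 for Kif23, -0.041 to 0.804 for Cenpf, -0.134 to 0.397 for Cdc20, -0.107 to 0.777 for Birc5, -0.019 to 0.741 for Ube2c and -0.003 to 0.542 for Ttk. Median centring turned Tk1 to 0.031 and Bub1b to 0.034, and the mean of its probe sets turned Tk1 to 0.219. The causes were not tested. Scanner files were not used here, so no other background correction or slide block was run.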
